A study of Homo sapiens with 6 samples.

Results

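Mutations in 8 genes, IDH1, IDH2, ARID1A, BAP1, PBRM1, BRAF, PIK3CA and CDKN2A, recur in cholangiocarcinoma, the cancer of the bile duct epithelium, and the RNA levels of these genes were followed in TFK1 cells with and without added STUB1. The genes were chosen by name as recurrent driver genes of this cancer, and all 8 were found among the 23569 genes of the deposited table. TFK1 is a cell line from a human extrahepatic bile duct carcinoma. Both groups were TFK1 cells carrying a lentiviral construct and selected with puromycin as stable cells: oeNC carried the negative control vector (3 libraries) and oeSTUB1 a vector with the coding sequence of STUB1, an E3 ubiquitin ligase that works with heat shock chaperones (3 libraries). As far as the sources used here tell, each group came from 1 stable population, so an effect of STUB1 and a difference between the populations cannot be told apart. The study's methods speak of independent repeats of its experiments in general, but no source used here says whether the 3 libraries of a group came from separate cultures, and if they did not, the p-values measure only the spread between these libraries, which may be technical.

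The 8 genes belong to 4 kinds of machinery. IDH1 and IDH2 are isocitrate dehydrogenases, which make 2-oxoglutarate, and their hotspot mutants in intrahepatic bile duct cancer make 2-hydroxyglutarate instead, a metabolite that inhibits DNA and histone demethylating enzymes. ARID1A and PBRM1 are subunits of SWI/SNF chromatin remodelling complexes and BAP1 is a deubiquitinase that takes ubiquitin off histone H2A. All of these chromatin genes are lost through inactivating mutations. BRAF is a kinase of the RAS-RAF-MEK-ERK cascade and PIK3CA the catalytic p110alpha subunit of PI3K, both activated by hotspot mutations. CDKN2A encodes the INK4-type CDK inhibitor p16INK4a and, from another first exon, the MDM2 inhibitor ARF, and is lost in biliary cancers by deletion or by methylation of its promoter. RNA levels do not show which alleles of these genes TFK1 cells carry, and no genotype was analysed here.

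Libraries held between 33106564 and 36744521 fragments. Per group (mean ± SD, n = 3 each), oeNC had 32.3 ± 1.23 FPKM of STUB1 and oeSTUB1 66.1 ± 7.70 FPKM, with no overlap between groups, and fragments of the added coding sequence and of the cell's own gene are counted together. Of 7 biliary epithelial markers tested, 1 was higher and 4 were lower in oeSTUB1, beside 7.01% and 6.59% of all genes tested in limma, and their summed level was 7419 to 7996 FPKM in oeNC and 4724 to 6263 FPKM in oeSTUB1. KRT19, a defining biliary keratin, was low in oeNC, at 0.374 to 0.529 FPKM, and higher in oeSTUB1, at 2.51 to 3.41 FPKM. Its rise was 2.47 on the log2 scale, and it was called in all 15 other fits that were planned. EPCAM and CDH1, which encode epithelial adhesion proteins, fell by 1.13 and 1.09 on the log2 scale and were called in all 15 other fits that were planned. The keratins KRT8 and KRT18 fell by 0.57 and 0.68, but among the leave-one-out fits kept their calls only without oeSTUB1 replicate 2 (limma, adjusted p of up to 0.166 and 0.117 otherwise), and lost them with a replicate block and in the fit without a minimum level. KRT7 and SOX9, with log2 fold changes of 0.47 and -0.23, were not called. The groups of KRT7 did not overlap, and without oeSTUB1 replicate 2 it was called as higher, at 0.30 (limma, adjusted p = 0.0126). SOX9 was not called in that fit either. Of 8 fibroblast markers COL1A2, DCN, PDGFRA and PDGFRB stayed under 0.1 FPKM in every library and the summed level was 1.31 to 2.36 and 2.16 to 4.05 FPKM. The 6 endothelial markers summed to 0.0770 to 0.103 and 0.0974 to 0.275 FPKM, with VWF, CDH5, KDR, TEK and CLDN5 under 0.1 FPKM throughout, and the 8 immune markers to 32.7 to 35.1 and 26.3 to 27.1 FPKM, mostly CD68, with MS4A1 under 0.1 FPKM. In RNA from whole cultures, fewer cells of a kind and less RNA per cell cannot be told apart, and the part of these marker levels in the results on the driver genes was not tested.

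FPKM is the number of fragments scaled by gene length and by the total of the library. Levels of different genes can be set side by side only as far as the length used for each gene holds. This length was 16566 bases for BRAF and 2709 bases for IDH1, and whether the transcripts in these cells have it was not analysed here. In oeNC cells the 8 genes ran in the order IDH1, IDH2, ARID1A, BAP1, PBRM1, PIK3CA, BRAF and CDKN2A, and no neighbouring pair in this order had overlapping values. Mean expression over the 6 libraries put IDH1 above 96.4% of the 15353 genes tested and IDH2 above 88.8%, while BRAF stood above only 34.1%. In oeSTUB1 cells the order was the same by group mean, but ARID1A overlapped with BAP1 and PIK3CA with BRAF. CDKN2A was at the bottom in both groups, at levels of a few fragments per library.

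**Figure D1:**
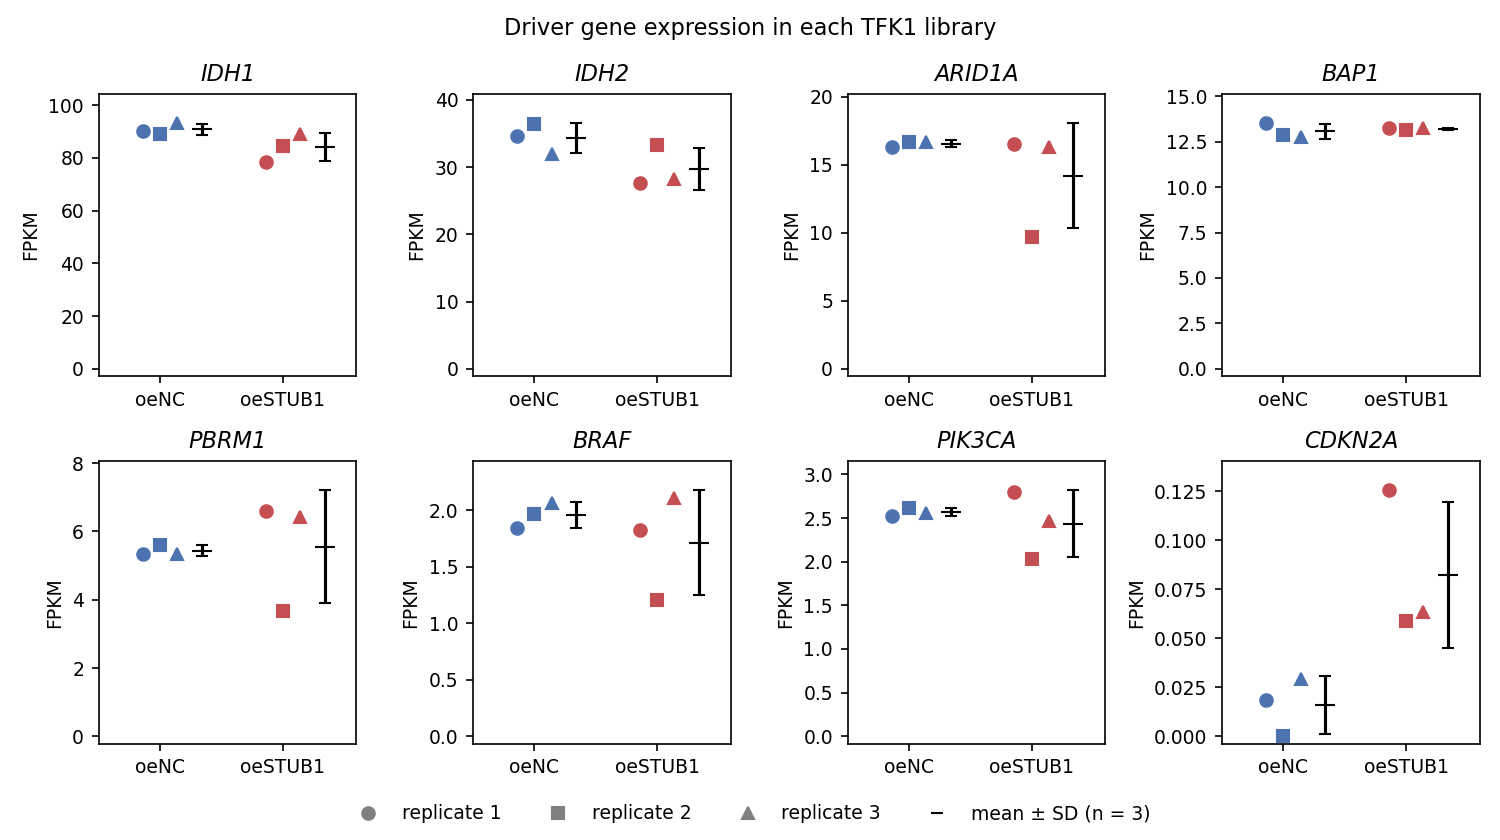
Expression of the 8 driver genes in FPKM (vertical axes, one scale per gene) in the 3 oeNC and 3 oeSTUB1 libraries, 1 symbol per replicate number, with the group mean and SD (n = 3) as a black bar. ARID1A, PBRM1, BRAF and PIK3CA have their lowest value in oeSTUB1 replicate 2, and CDKN2A is the only gene whose groups do not overlap.

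In none of the 7 driver genes that could be tested did the difference between oeSTUB1 and oeNC pass the test. Called genes were those with an adjusted p-value under 0.05 in limma, fitted on log2(FPKM + 0.1) over the 15353 genes whose mean reached 0.1 FPKM, with Benjamini-Hochberg adjustment over all of them. Sizes of a rise or fall are log2 fold changes on this scale. 0 of the 7 genes were called, where 13.6% of all genes tested were (7.01% higher and 6.59% lower in oeSTUB1), and 0 of the 7 had non-overlapping groups, where 38.8% of all genes tested did. At an unadjusted p-value under 0.05 the count was also 0 of 7 in limma, against 29.7% of all genes, and limma-voom on recovered fragments called 0 of 7. The median log2 fold change of the 7 genes was -0.11, with 6 below 0, and that of all genes tested was 0.02. CDKN2A lay under the minimum level and was not tested. Without oeSTUB1 replicate 2, the library in which the genes with long transcripts were low, 2 of the 7 genes were called, IDH2 as lower and PBRM1 as higher, where 26.8% of all genes were called, and the median of the 7 was 0.01.

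**Figure D2:**
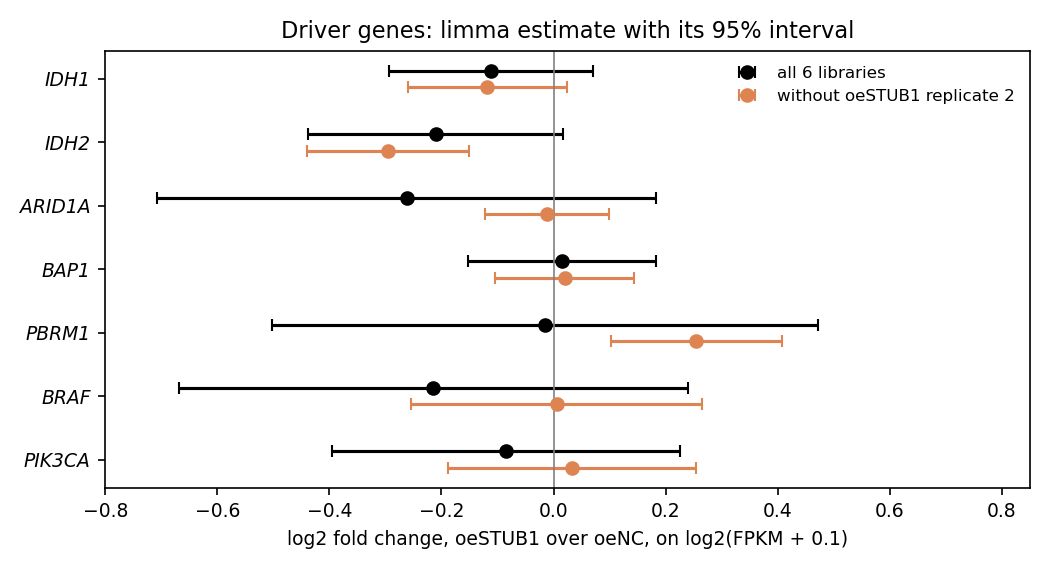
Log2 fold change of oeSTUB1 over oeNC (horizontal axis) for the 7 tested driver genes, with the limma estimate as a point and its 95% interval as a bar, from all 6 libraries (black) and without oeSTUB1 replicate 2 (orange). Every black bar crosses 0, and without that library the bars of IDH2 (-0.30) and PBRM1 (0.25) do not.

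IDH1 (chr2:208236227-208266074, minus strand, GRCh38, GENCODE release 29), which encodes the cytosolic and peroxisomal enzyme, was the most highly expressed of the 8 genes. Its level was 90.1, 89.0 and 93.2 FPKM in the oeNC libraries and 78.4, 84.7 and 89.2 FPKM in the oeSTUB1 libraries. Replicate 1 of oeSTUB1 was lowest, and oeSTUB1 replicate 3 reached into the oeNC range, so that the groups overlapped. The difference was -0.11 on the log2 scale (95% interval -0.29 to 0.07, limma, adjusted p = 0.382). The genes tested on chromosome 2 had a median of -0.21, which lies below the value of IDH1. IDH1 overlaps IDH1-AS1 on the opposite strand, and the strand setting of the counting is not given in the sources used here.

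IDH2 (chr15:90083045-90102504, minus strand), the mitochondrial enzyme, was expressed at a lower level than IDH1 in every library. It had 34.6, 36.4 and 32.0 FPKM in oeNC and 27.6, 33.4 and 28.2 FPKM in oeSTUB1. Replicates 1 and 3 of oeSTUB1 were below all oeNC libraries, while oeSTUB1 replicate 2 lay within their range. The log2 fold change was -0.21 (SE 0.10, 95% interval -0.44 to 0.02, limma, adjusted p = 0.197). It was -0.30 without oeSTUB1 replicate 2 (limma, adjusted p = 0.0129), and leaving out each library in turn gave adjusted p-values of 0.0129 to 0.489. With a correction for gene length, chosen after seeing the data, it was -0.26 (limma, adjusted p = 0.0342), in a fit that called 21.6% of all genes. The IDH1 to IDH2 ratio within a library was 2.61, 2.44 and 2.92 in oeNC and 2.84, 2.54 and 3.16 in oeSTUB1, which overlapped.

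Of 24 tested partner genes of the 2-oxoglutarate and TCA cycle list, 2 were higher and 1 was lower in oeSTUB1. Among all genes tested 7.01% were higher and 6.59% lower, and the median of the list was 0.10. IDH3A, the catalytic subunit of the NAD-dependent isocitrate dehydrogenase, rose from 20.4 to 21 FPKM in oeNC to 24.4 to 25.6 FPKM in oeSTUB1, by 0.26 on the log2 scale (limma, adjusted p = 0.0479). Its regulatory subunits IDH3B and IDH3G had log2 fold changes of 0.08 and 0.17 and were not called. ACO1, the cytosolic aconitase that doubles as an iron regulatory protein, rose by 0.58 (limma, adjusted p = 0.00334), from 9.48, 10.1 and 9.90 to 14.6, 14 and 15.7 FPKM. ACO1 lies on chromosome 9, whose tested genes had a median of 0.16. D2HGDH, the mitochondrial enzyme that oxidises D-2-hydroxyglutarate back to 2-oxoglutarate, fell by 0.54 (limma, adjusted p = 0.0197), with 3.82, 4.02 and 4.28 FPKM in oeNC and 2.75, 2.45 and 3.05 FPKM in oeSTUB1. D2HGDH lies on chromosome 2, whose median was -0.21. IDH3A was called in only 4 of the 15 other fits that were planned. Its call was lost in 5 of the 6 fits that left out 1 library, being kept only without oeSTUB1 replicate 2. It was also lost with limma-voom, a minimum of 1 FPKM, median-ratio scaling, no trend, quantile normalization and a replicate block (limma, adjusted p from 0.0504 to 0.132). D2HGDH lost its call without any 1 of the oeNC libraries or without oeSTUB1 replicate 1 (limma, adjusted p from 0.0547 to 0.0866). ACO1 was called in all 15 other fits that were planned.

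ARID1A (chr1:26693236-26782110, plus strand), the subunit that defines the BAF form of SWI/SNF, separated a single library from the other 5. It was at 16.3, 16.7 and 16.7 FPKM in oeNC and 16.6, 9.72 and 16.3 FPKM in oeSTUB1. Only oeSTUB1 replicate 2 was low, with 2767 fragments where the other libraries had between 4796 and 5268. On the log2 scale the fold change was -0.26 (95% interval -0.71 to 0.18, limma, adjusted p = 0.405), and without that library it was -0.01 (95% interval -0.12 to 0.10). ARID1B, the paralogue that takes the same place in the complex, followed the same course, with 6.61, 6.72 and 6.45 FPKM in oeNC and 6.76, 3.87 and 6.65 FPKM in oeSTUB1. The ARID1A to ARID1B ratio stayed between 2.45 and 2.58 in all 6 libraries.

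PBRM1 (chr3:52545352-52685917, minus strand), which reads acetylated histones in the PBAF form of SWI/SNF, was the driver gene whose direction depended most on that library. Its level was 5.34, 5.61 and 5.35 FPKM in oeNC and 6.59, 3.66 and 6.41 FPKM in oeSTUB1. Replicates 1 and 3 of oeSTUB1 lay above all oeNC libraries and replicate 2 below all of them. It differed by -0.02 on the log2 scale (95% interval -0.50 to 0.47, limma, adjusted p = 0.969) with all libraries and 0.25 (95% interval 0.10 to 0.41, limma, adjusted p = 0.0270) without oeSTUB1 replicate 2. With that library left out and gene length corrected as well, it was 0.21 (limma, adjusted p = 0.0520). PBRM1 overlaps SMIM4 and GNL3 on the opposite strand.

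A ratio of 2 genes within a library sets PBRM1 against ARID2, its partner in PBAF. ARID2 was at 8.27, 8.56 and 8.98 FPKM in oeNC and at 9.33, 5.26 and 8.54 FPKM in oeSTUB1, so that it too was lowest in oeSTUB1 replicate 2. The PBRM1 to ARID2 ratio was 0.647, 0.656 and 0.595 in oeNC and 0.706, 0.696 and 0.751 in oeSTUB1. All 3 oeSTUB1 ratios lay above all 3 oeNC ratios, oeSTUB1 replicate 2 included. A two-sided exact permutation test gave p = 0.1, the smallest that 3 against 3 allows, and p = 0.583 after Benjamini-Hochberg adjustment over the 7 ratios computed, which were chosen with values known. Such a ratio compares the pair and does not show which of them differed between the groups.

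The SWI/SNF list held 25 tested partner genes, of which 1 was higher and 1 was lower, beside 7.01% and 6.59% of all genes. The median of the list was 0.05. SMARCD2, a core BAF60 subunit, rose by 0.31 (limma, adjusted p = 0.0255), from 19.3 to 20.0 FPKM to 23.8 to 24.9 FPKM. BCL11B, a zinc finger subunit best known from T cells and low in these cells, fell by 0.82 on the log2 scale (limma, adjusted p = 0.0421), from 0.646 to 0.827 FPKM to 0.298 to 0.491 FPKM. Both calls depended on single libraries: SMARCD2 kept its call among the leave-one-out fits only without oeSTUB1 replicate 2, and BCL11B lost it without any 1 of the oeNC libraries or without oeSTUB1 replicate 1. SMARCD2 also lost its call with no trend, quantile normalization and a replicate block (limma, adjusted p from 0.0584 to 0.0880). BCL11B also lost its call in the fit without a minimum level (limma, adjusted p = 0.0879). The ATPase SMARCA2 had 5.34, 5.65 and 5.66 FPKM in oeNC and 7.68, 5.79 and 7.70 FPKM in oeSTUB1, a log2 fold change of 0.33 (limma, adjusted p = 0.126). The groups did not overlap, and without oeSTUB1 replicate 2 the value was 0.46 (limma, adjusted p = 0.00275). The alternative ATPase SMARCA4 was lower than SMARCA2 in every library, at 2.25 to 2.63 FPKM in oeNC and 2.39 to 2.72 FPKM in oeSTUB1, with a log2 fold change of 0.05. SMARCB1, the core subunit lost in rhabdoid tumours, had a log2 fold change of 0.09 (limma, adjusted p = 0.596). ACTL6B was not analysed here.

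BAP1 (chr3:52401013-52410350, minus strand) was the steadiest of the 7 tested genes, with an SD of 0.029 on the log2 scale over the 6 libraries. It was at 13.5, 12.9 and 12.8 FPKM in oeNC and at 13.2, 13.1 and 13.2 FPKM in oeSTUB1. The 3 oeSTUB1 values lay inside the oeNC range. The log2 fold change was 0.02 with a 95% interval of -0.15 to 0.18 (limma, adjusted p = 0.910), and leaving out each library in turn moved it between 0.00024 and 0.04. Its sign turned, to -0.0066 and -0.0063, with median-ratio scaling and quantile normalization. No annotated gene overlaps BAP1.

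With all libraries most partners of BAP1 had log2 fold changes below 0, with few calls. Of 16 tested genes 0 were higher and 1 was lower, beside 7.01% and 6.59% of all genes tested. The median was -0.14 and 14 were below 0, where 7270 of all 15353 genes tested were. Without oeSTUB1 replicate 2 the median was -0.03, with 1 higher and 2 lower. FOXK1, a forkhead factor that recruits BAP1 to chromatin, fell by 0.89 on the log2 scale (limma, adjusted p = 0.00902), with 12.6, 14.3 and 13 FPKM in oeNC and 8.21, 5.50 and 7.98 FPKM in oeSTUB1. The groups of FOXK1 did not overlap, and it was called in all 15 other fits that were planned. Its paralogue FOXK2 had 15.5, 15.1 and 14.7 FPKM in oeNC and 18.9, 16.6 and 17.9 FPKM in oeSTUB1, which gave 0.23 on the log2 scale and no call (limma, adjusted p = 0.0974) but 0.28 (limma, adjusted p = 0.00884) without oeSTUB1 replicate 2. ASXL1 and ASXL2, the scaffold proteins that activate BAP1, had log2 fold changes of -0.17 and -0.43 and were not called. ASXL2 was at 3.68 FPKM in oeSTUB1 replicate 2 and at 7.76 to 8.79 FPKM in the other 5 libraries. ASXL3 was not analysed here.

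BRAF (chr7:140719327-140924928, minus strand) was expressed at a low level. It was at 1.84, 1.97 and 2.06 FPKM in oeNC and at 1.83, 1.21 and 2.1 FPKM in oeSTUB1. Replicate 2 of oeSTUB1 was again the low library, and the other 2 spanned the oeNC range. The log2 fold change was -0.21 (95% interval -0.67 to 0.24, limma, adjusted p = 0.510) and 0.01 (95% interval -0.25 to 0.27) without that library. The related kinase ARAF stood at 19.9 to 24.8 FPKM over all libraries, with an ARAF to BRAF ratio of 11.5, 10.7 and 9.62 in oeNC and of 11.5, 20.6 and 10.2 in oeSTUB1. ARAF had a log2 fold change of 0.11 and was not called. BRAF overlaps NDUFB2 on the opposite strand and has an annotated pseudogene copy, BRAFP1, and how reads shared with such copies were counted is not given in the sources used here.

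Of the 27 tested partner genes of the RAS-RAF-MEK-ERK list, 2 were higher and 3 were lower, beside 7.01% and 6.59% of all genes. The median of the list was 0.06. KSR1, the scaffold that brings RAF and MEK together, fell by 0.72 (limma, adjusted p = 0.00683), with 8.81, 9.37 and 9.76 FPKM in oeNC and 5.89, 4.80 and 6.30 FPKM in oeSTUB1. The groups of KSR1 did not overlap. NRAS and HRAS were not called: NRAS had a log2 fold change of 0.07 and HRAS of 0.48 (limma, adjusted p = 0.0766), with HRAS at 18.7 to 20.6 FPKM in oeNC and 23.5, 35.6 and 24.8 FPKM in oeSTUB1. MAP2K1, which encodes the ERK kinase MEK1, rose by 0.32 (limma, adjusted p = 0.0328), whereas MAPK3, which encodes ERK1, fell by 0.43 (limma, adjusted p = 0.0277). MAPK3 was named after its value was seen. YWHAB, an adaptor that binds phosphorylated RAF, rose by 0.30 (limma, adjusted p = 0.0401). KSR1 was called in all 15 other fits that were planned. MAP2K1, MAPK3 and YWHAB kept their calls among the leave-one-out fits only without oeSTUB1 replicate 2. All of them also lost their calls with no trend (limma, adjusted p from 0.0582 to 0.0785), and MAP2K1 and YWHAB with a replicate block. YWHAB lost its call as well with median-ratio scaling, quantile normalization and no minimum level.

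PIK3CA (chr3:179148114-179240093, plus strand) was among the weakly expressed driver genes. It was at 2.52, 2.61 and 2.56 FPKM in oeNC and at 2.80, 2.03 and 2.46 FPKM in oeSTUB1. The oeSTUB1 values lay on both sides of the narrow oeNC range. Between groups the log2 difference was -0.08 (95% interval -0.39 to 0.23, limma, adjusted p = 0.714) and 0.03 without oeSTUB1 replicate 2. PIK3CA overlaps KCNMB3 on the opposite strand. PIK3CB, the p110beta subunit, was expressed 2.74 to 3.15 times higher than PIK3CA in every library and had a log2 fold change of 0.004, and PIK3CD, the p110delta subunit, had one of -0.19, with neither called.

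Of 26 tested genes of the PI3K-AKT-mTOR list, 1 was higher and 1 was lower, beside 7.01% and 6.59% of all genes. The median of the list was -0.03. INPP4B, a phosphatase that removes the PI3K lipid product PI(3,4)P2, rose by 1.47 (SE 0.18, limma, adjusted p = 0.00206), with 0.620, 0.717 and 0.639 FPKM in oeNC and 2.44, 1.55 and 2.09 FPKM in oeSTUB1. INPP4B was called in all 15 other fits that were planned. RICTOR, the defining subunit of mTORC2, fell by 0.95 (limma, adjusted p = 0.0328), with 8.69, 9.12 and 10.6 FPKM in oeNC and 5.85, 3.19 and 6.01 FPKM in oeSTUB1. RICTOR lost its call without any 1 of the oeNC libraries (adjusted p from 0.0839 to 0.121 in limma). It also lost its call with no trend and in the fit without a minimum level (limma, adjusted p of 0.0608 and 0.0707). The regulatory subunits PIK3R1 and PIK3R2 had log2 fold changes of -0.23 and 0.10 and were not called, and PIK3R3 stayed between 0.0236 and 0.148 FPKM.

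**Figure D3:**
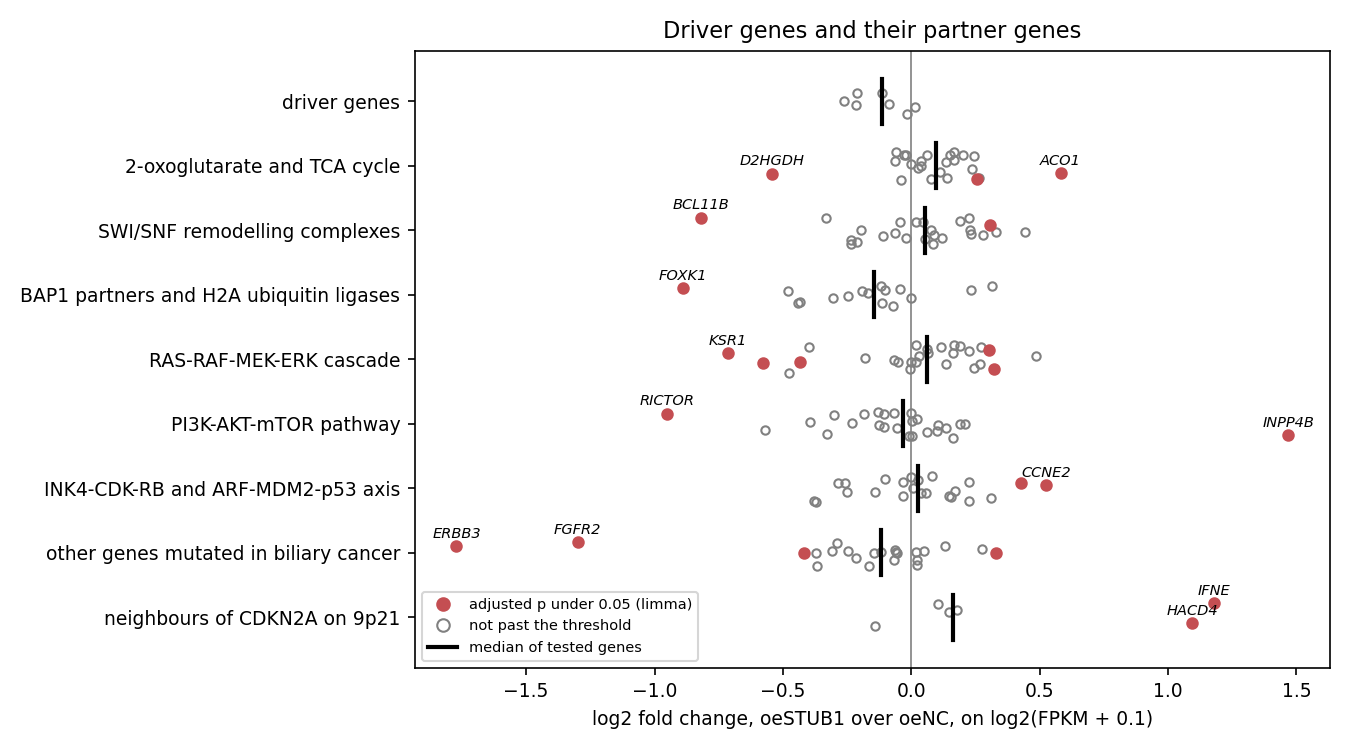
Log2 fold change of oeSTUB1 over oeNC (horizontal axis) for each tested driver gene, partner gene and 9p21 neighbour, by list (vertical axis). Filled points passed an adjusted p-value of 0.05 in limma, open points did not, black lines are list medians, and most called genes past 0.5 in either direction are named. The driver genes have no filled point, and the lists hold 21 between them. HACD4 is 1 of these, but it reached the minimum level only through the oeSTUB1 libraries, so its filled point is not read as a call.

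CDKN2A (chr9:21967753-21995301, minus strand) was close to the limit of detection in these cells, with more fragments in the oeSTUB1 libraries. It was at 0.0187, 0 and 0.0294 FPKM in oeNC and at 0.125, 0.0588 and 0.0633 FPKM in oeSTUB1. These values stand for 3, 0 and 5 fragments in oeNC and for 20, 9 and 10 fragments in oeSTUB1, so that every oeSTUB1 library was above every oeNC library. In each library 3 fragments, about the upper 95% limit on the expected number when the count is 0, correspond to 0.0176 to 0.0196 FPKM. Summed over the group, 39 fragments in oeSTUB1 against 8 in oeNC gave a ratio of 5.08 after scaling by library totals, with an exact 95% interval of 2.34 to 12.6 that covers counting error only. Among the 8216 genes under the minimum level, 12.4% had non-overlapping groups and 7.11% were so with oeSTUB1 higher. In the limma fit without a minimum level the log2 fold change was 0.64 (SE 0.17, unadjusted p = 0.00830, adjusted p = 0.0791), which did not pass the threshold where 7.63% of all genes did, and the pseudocount of 0.1 makes this value understate the ratio of fragments. At such levels a few fragments from CDKN2B-AS1, which overlaps CDKN2A on the opposite strand, could not be told apart from CDKN2A if strand was not used, and CDKN2B-AS1 was not analysed here.

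RefSeq places 2 start sites in CDKN2A, and both windows are shown because DNA methylation of this promoter is a known way of losing the gene and the study concerns UHRF1, a factor of DNA methylation maintenance. Each window runs from 250 bases before to 50 bases after a start site on GRCh38.p14, is printed 5′ to 3′ on the minus strand, and has each CpG, the dinucleotide that DNA methyltransferases modify, in capitals. The upstream window serves the ARF transcript and the downstream window the p16INK4a transcript.
CDKN2A upstream start, chr9:21995275-21995574: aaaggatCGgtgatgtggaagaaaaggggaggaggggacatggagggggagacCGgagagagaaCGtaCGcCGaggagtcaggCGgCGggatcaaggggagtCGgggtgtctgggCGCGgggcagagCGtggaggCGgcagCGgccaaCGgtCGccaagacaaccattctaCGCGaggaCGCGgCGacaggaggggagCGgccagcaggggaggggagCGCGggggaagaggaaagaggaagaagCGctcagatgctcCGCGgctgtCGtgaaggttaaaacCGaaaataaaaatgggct
CDKN2A downstream start, chr9:21974808-21975107: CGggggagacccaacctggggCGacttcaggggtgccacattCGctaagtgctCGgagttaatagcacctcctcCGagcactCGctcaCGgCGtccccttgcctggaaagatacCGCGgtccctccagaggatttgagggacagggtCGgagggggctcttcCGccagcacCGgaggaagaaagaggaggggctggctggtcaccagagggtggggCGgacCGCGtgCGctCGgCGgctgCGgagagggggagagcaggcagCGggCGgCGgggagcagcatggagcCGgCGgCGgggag
The upstream window holds 28 CpG and the downstream window 26, more than 73.8% and 69.9% of the 35116 RefSeq promoter windows of this length, whose median is 14. Of the 8 driver genes 7 matched a window by symbol, with 10 windows in all, and CpG numbers ran from 6 in IDH2 through 16 in BRAF, 17 and 20 in IDH1, 22 in PIK3CA and 33 in ARID1A to 31 and 46 in the windows of PBRM1. Windows follow RefSeq start sites, and not every window lies at the outer end of its gene. Those of ARID1A, IDH1, IDH2 and BRAF, and the PBRM1 window with 46 CpG, lie wholly inside the gene spans given above. The IDH2 window is chr15:90100572-90100871, so its 6 CpG need not describe the outermost start of that gene. The number of CpG is a property of the reference sequence, and no methylation value was analysed here.

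Of the genes next to CDKN2A on 9p21, 6 reached the minimum level, HACD4 among them only through the oeSTUB1 libraries. MTAP, the purine salvage enzyme that is often deleted together with CDKN2A, was at 0.661, 0.788 and 0.793 FPKM in oeNC and at 0.904, 0.722 and 0.892 FPKM in oeSTUB1, with overlap and no call (limma, adjusted p = 0.580). CDKN2B, which encodes the CDK inhibitor p15INK4b beside CDKN2A, had at most 1 fragment in each library. Of the 5 neighbours other than HACD4 that were tested, 1 was higher and 0 were lower, beside 7.01% and 6.59% of all genes. The median over all tested genes of chromosome 9 was 0.16. IFNE, the epithelial interferon epsilon, rose by 1.18 (limma, adjusted p = 0.00140), with 1.64, 1.31 and 1.2 FPKM in oeNC and 3.17, 3.38 and 3.21 FPKM in oeSTUB1, and it was called in all 15 other fits that were planned. HACD4, a fatty acid dehydratase, had 5, 11 and 10 fragments in oeNC and 60, 37 and 59 in oeSTUB1, and since the oeSTUB1 libraries decided whether it was tested, no test is given for it. KLHL9, FOCAD and DMRTA1 had log2 fold changes of 0.18, 0.10 and -0.14 and were not called.

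Downstream of CDKN2A, in the INK4-CDK-RB and ARF-MDM2-p53 axis, 2 of 23 tested genes were higher and 0 lower, beside 7.01% and 6.59% of all genes. The median of the list was 0.03. CDKN1A, which encodes the CDK inhibitor p21, rose by 0.43 (limma, adjusted p = 0.00860), with 25.7, 26.2 and 24.9 FPKM in oeNC and 33.2, 36.6 and 33.7 FPKM in oeSTUB1. CCNE2, the CDK2 partner cyclin E2, rose by 0.53 (limma, adjusted p = 0.0165), from 2.2 to 2.51 FPKM to 3.25 to 3.64 FPKM. The INK4 relatives CDKN2C and CDKN2D were expressed at 12.3 to 17.9 and 2.46 to 3.09 FPKM over all libraries and were not called. CDK4, CCND1 and RB1 were not called either, with log2 fold changes of 0.22, 0.15 and -0.00084. CDK6 was at 14.2, 14.3 and 14.9 FPKM in oeNC and at 24.2, 12.5 and 19.2 FPKM in oeSTUB1, a log2 fold change of 0.31 (limma, adjusted p = 0.365) that was 0.57 (limma, adjusted p = 0.00558) without oeSTUB1 replicate 2. CDKN1A lost its call without oeNC replicate 1 or 3 (adjusted p of 0.0551 and 0.0508 in limma), and CCNE2 without oeNC replicate 1 or 2 or oeSTUB1 replicate 1. CCNE2 also lost its call with a replicate block (limma, adjusted p = 0.0558).

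Of 23 tested genes on a list of other genes mutated in biliary cancer, 1 was higher and 3 were lower in oeSTUB1. The shares over all genes tested were 7.01% and 6.59%, and the median of the list was -0.12. ERBB3, a receptor of the EGFR family, fell by 1.77 (SE 0.19, limma, adjusted p = 0.00113), with 11.8, 13.8 and 13.7 FPKM in oeNC and 3.45, 2.97 and 5.17 FPKM in oeSTUB1. FGFR2, the receptor that is fused in part of the intrahepatic tumours, fell by 1.30 (SE 0.18, limma, adjusted p = 0.00310), with 2.79, 2.64 and 3.10 FPKM in oeNC and 0.998, 0.906 and 1.44 FPKM in oeSTUB1. Both were called in all 15 other fits that were planned, and in neither did the groups overlap. ERBB2, the dimerisation partner of ERBB3, fell by 0.42 (limma, adjusted p = 0.00844), from 16.4 to 16.6 FPKM to 12.0 to 12.7 FPKM, and lost its call without oeNC replicate 1 (adjusted p = 0.0577) or 2 (adjusted p = 0.0625). MCL1, an anti-apoptotic member of the BCL2 family, rose by 0.33 (limma, adjusted p = 0.0260), and kept its call among the leave-one-out fits only without oeSTUB1 replicate 2. MCL1 also lost its call with no trend, quantile normalization and a replicate block (limma, adjusted p from 0.0610 to 0.0778).

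Over the 7 partner lists 164 genes were tested, of which 9 were higher and 10 were lower, with 82 above 0 and 82 below. These are 19 of 164 genes beside the 13.6% called among all genes. Without oeSTUB1 replicate 2 the calls were 33 higher and 18 lower, beside 14.8% and 12.0% of all genes. ACO1, ERBB3, FGFR2, FOXK1, INPP4B and KSR1 were the 6 of the 19 that were called in all 15 other fits that were planned.

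The low values in oeSTUB1 replicate 2 went with gene length. Compared with the mean of the other 2 libraries of its group, this library had a median deviation of 0.38 on the log2 scale over genes of up to 1000 bases and of -0.54 over genes longer than 16000 bases, whereas the class medians of the oeNC libraries stayed between -0.06 and 0.05. The 4 driver genes with more than 8000 counted bases, ARID1A (8595), PIK3CA (9552), PBRM1 (10329) and BRAF (16566), deviated by -0.75, -0.35, -0.81 and -0.66. The 3 shorter ones, IDH2 (2704), IDH1 (2709) and BAP1 (3695), deviated by 0.26, 0.02 and -0.01. PIK3CA and BRAF lay close to the median of the genes within 1.2-fold of their length (-0.38 and -0.53). ARID1A and PBRM1 lay further down than most genes of like length: only 9.11% of 1713 genes and 11.2% of 1241 genes were lower still. The cause of this deviation was not tested.

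**Figure D4:**
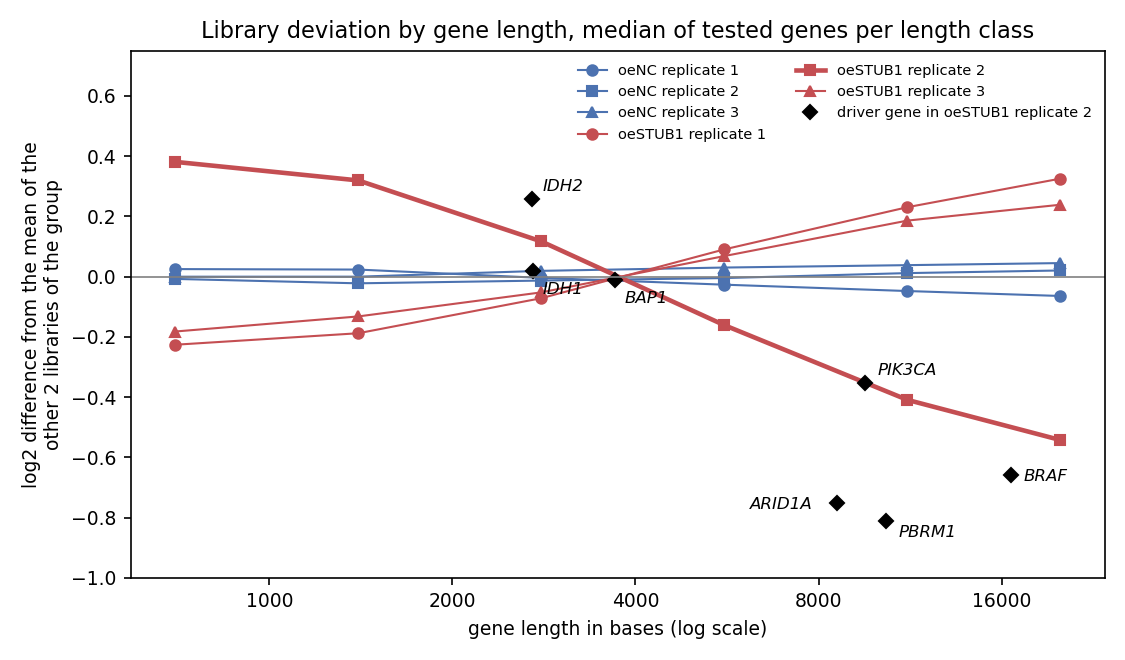
Deviation of each library from the mean of the other 2 libraries of its group on the log2 scale (vertical axis), as the median of the tested genes in 6 classes of gene length drawn at about the middle of each class (horizontal axis, bases, log scale). Diamonds are the 7 tested driver genes in oeSTUB1 replicate 2, whose line falls from 0.38 to -0.54 while the oeNC lines stay near 0.

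The gene nearest in pattern to each driver gene over the 6 libraries was found among 11374 tested genes whose mean reached 1 FPKM, as the smallest root mean square difference of log2 values after each gene was centred on its own mean. These were TMEM175 for IDH1 (0.024), GATB for IDH2 (0.020), RANBP2 for ARID1A (0.022), SF3B2 for BAP1 (0.015), KIAA0100 for PBRM1 (0.028), PIK3R1 for BRAF (0.036) and SCN9A for PIK3CA (0.025). RANBP2 was at 9.05 FPKM in oeSTUB1 replicate 2 and at 14.8 to 15.8 FPKM in the other libraries. PIK3R1 likewise had 2.02 FPKM in oeSTUB1 replicate 2 and 3.07 to 3.62 FPKM elsewhere. SF3B2 varied between 73.6 and 78.7 FPKM. Genes picked in this way share the course of their driver gene by construction, so the likeness is a description and no result.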

How the data were processed

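Gene expression was measured by RNA-seq in 6 TFK1 libraries, 3 oeNC and 3 oeSTUB1, grouped by the sample titles. The authors deposited FPKM values for 23569 gene symbols. The submitters' processing notes name fastp 0.20.1, HISAT2 2.1.0, HTSeq 0.11.2, R 3.2.0, DESeq2 1.22.2 and GRCh38.p13, with no role or order, and the annotation and the strand setting are not given in the sources used here. Value columns of no mapped sample numbered 0.

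Whole fragments and gene lengths were recovered from the deposited FPKM as the smallest whole length at which all 6 fragment numbers are whole (within 0.0002 plus rounding), which succeeded for 23569 genes, with recomputed FPKM within 4.9e-06. Fragments may be low by a common divisor. Fragments on listed genes made up 99.7% of each library. Intervals and floors on fragments cover counting error only.

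The groups were compared by a two-sided test in limma 3.58.1 under R 4.3.3 (lmFit and trended eBayes) on log2(FPKM + 0.1), for genes whose mean reached 0.1 FPKM, with Benjamini-Hochberg adjustment over 15353 genes. Fold changes are on this scale, which understates changes of low genes. On simulated data 200 of 200 genes changed 2-fold were called in their true direction. With 15321 genes tested, 16 unchanged genes were called as well. The simulation drew each gene independently with a fixed spread, changed only genes above 1 FPKM, and held no library that deviated with gene length. It therefore does not show how often smaller changes would be called in the real libraries. Alternatives were pseudocounts of 0.01 and 1, no minimum, a minimum of 1 FPKM, median-ratio scaling, quantile normalization, no trend, a replicate block, limma-voom on fragments and leaving out each library. A lowess correction for length (span 0.3), with and without oeSTUB1 replicate 2, was chosen after seeing the data.

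The driver genes and all lists were chosen with earlier results of these data known. Named were the 8 driver genes, STUB1, all called genes of a list (at most 4, otherwise the 2 largest rises and 2 largest falls), the partners nearest in role, all listed neighbours of CDKN2A, and the gene nearest in pattern to each driver gene. Some genes that this rule names are not reported here.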

Additional observations from a re-analysis of the deposited data

How the results depend on the processing

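Of the 7 driver genes, 0 were called with all libraries, 0 to 2 in the fits that left out 1 library (2 without oeSTUB1 replicate 2), 1 with the length correction and 1 with the length correction without oeSTUB1 replicate 2; the other alternatives gave 0. Over all genes, 2088 calls became 933 to 4112 in the fits that left out 1 library, 3322 with the length correction and 3917 with the length correction without oeSTUB1 replicate 2. The log2 fold change of BAP1 was -0.0066 with median-ratio scaling, -0.0063 with quantile normalization, -0.013 with the length correction and -0.0027 with the length correction without oeSTUB1 replicate 2. That of PBRM1 lay between -0.16 and 0.25 when each library was left out in turn, with 0.0074 without oeNC replicate 2, 0.25 without oeSTUB1 replicate 2, 0.077 with the length correction and 0.21 with the length correction without oeSTUB1 replicate 2. Leaving out each library gave -0.37 to 0.0054 for BRAF and -0.19 to 0.033 for PIK3CA, both above 0 only without oeSTUB1 replicate 2. The cause was not tested. Of 119 values of the 7 driver genes under an alternative, 106 kept direction and side of the threshold. Same-numbered libraries had correlations of their deviations of -0.049, -0.052 and 0.062, and differently numbered ones of -0.097 to 0.11. With 3 libraries per group these values cannot decide whether the numbers pair the libraries, which the labels do not say. The replicate block called 0 driver genes and 1488 genes in all. CDKN2A, at 0 to 20 fragments per library, is limited by depth.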
